A study of Mus musculus with 18 samples.

Results

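The genes described here encode the nuclear parts of the mitochondrial respiratory chain and of the ATP synthase. They were chosen by symbol in the array annotation: Nduf, Uqcr, Atp5, Sdha to Sdhd and Cox4 to Cox8, on probe sets with a single symbol, with the highest mean over the arrays where a gene had several. The rule found 93 of the 19937 genes on the arrays, and 90 of the 14003 genes tested. By complex they are 34 genes of complex I, 4 of complex II, 8 of complex III, 19 of complex IV, 17 of complex V and 11 assembly or other factors that share the prefixes. Cox7b2, Cox8c and Ndufaf6 were too low to be tested. Expression was measured on 18 microarrays of MHC+CD11chigh cells from the colon lamina propria of BALB/c mice 8 weeks old. The cells were sorted as CD103+CD11b-, CD103+CD11b+ and CD103-CD11b+, from untreated mice (replicates 1 to 3) or after exposure to 2% dextran sulfate sodium (DSS, used to cause colitis by damaging the epithelium; replicates 4 to 6), with 3 arrays in each of 6 groups. A replicate number is an experiment that gave 1 array of every subset under 1 condition, so experiment and DSS treatment cannot be told apart. How many mice stand behind an array, and whether replicates come from different animals, is not in the labels, so a p-value here reflects spread among these samples only.

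The respiratory chain sits in the inner mitochondrial membrane. Complex I (NADH dehydrogenase) and complex II (succinate dehydrogenase, also an enzyme of the tricarboxylic acid cycle) feed electrons through ubiquinone to complex III and cytochrome c, and complex IV passes them to oxygen. Complexes I, III and IV pump protons, and complex V, the ATP synthase, lets them return while making ATP. In macrophages and dendritic cells, activation is known to shift the balance between respiration and glycolysis, and succinate is a known signal in that shift.

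Ndufb11, Sdhd and Ndufs4 are among the genes described by array below. Their promoters are shown because textbook regulators of respiratory chain genes bind short motifs near the start site. The sequences come from RefSeq (GRCm38.p6), each from 250 bases before to 50 bases after the gene's start, 5′ to 3′ on the gene's strand. Capitals mark a match on either strand to the NRF1 motif GCGCANGCG, the ETS motif CCGGAAG (bound by GABPA) or the YY1 motif AAGATGGC. Ndufb11 encodes an accessory subunit of complex I and lies on the minus strand at chrX:20617570-20617869. Sdhd encodes a membrane anchor of complex II and lies on the minus strand at chr9:50603800-50604099. Ndufs4 encodes an accessory subunit needed for a stable complex I and lies on the minus strand at chr13:114388045-114388344.
Ndufb11: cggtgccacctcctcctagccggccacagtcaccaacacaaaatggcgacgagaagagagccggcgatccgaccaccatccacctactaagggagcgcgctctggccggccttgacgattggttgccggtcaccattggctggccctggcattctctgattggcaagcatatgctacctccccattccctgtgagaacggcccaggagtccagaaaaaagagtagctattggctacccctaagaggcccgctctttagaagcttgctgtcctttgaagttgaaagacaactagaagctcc
Sdhd: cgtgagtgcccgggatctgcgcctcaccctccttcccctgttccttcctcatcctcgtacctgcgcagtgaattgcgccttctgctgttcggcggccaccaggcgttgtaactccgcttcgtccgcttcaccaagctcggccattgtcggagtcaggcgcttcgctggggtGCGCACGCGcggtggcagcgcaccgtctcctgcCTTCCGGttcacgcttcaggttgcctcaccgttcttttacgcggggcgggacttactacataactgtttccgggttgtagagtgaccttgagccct
Ndufs4: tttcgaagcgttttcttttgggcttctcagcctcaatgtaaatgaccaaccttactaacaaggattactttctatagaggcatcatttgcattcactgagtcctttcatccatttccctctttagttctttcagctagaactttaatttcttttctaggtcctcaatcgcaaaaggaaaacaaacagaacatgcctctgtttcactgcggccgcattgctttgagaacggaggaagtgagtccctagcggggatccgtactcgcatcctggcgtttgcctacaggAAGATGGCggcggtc
The window of Sdhd holds an NRF1 match starting at base 172 and an ETS match at base 205, counted from its 5′ end. That of Ndufs4 holds a YY1 match at base 286, and that of Ndufb11 holds none of these letters. The window of Cox6b2, the gene with the widest range of group means, is not printed and holds none either. Of the 93 genes, 77 had a promoter in the table. The NRF1 motif was in 23 of them (29.9%) against 7.03% of the 27025 genes with a promoter and 9.63% of the 17492 protein-coding ones. The ETS motif was in 21 (27.3%, against 9.93% of all and 12.9% of protein-coding promoters) and the YY1 motif in 10 (12.99%, against 3.19% and 3.57%). At least 1 motif was in 45 of the 77, against 17.8% of all genes. By complex this held for 12 of 15 genes of complex V, 17 of 31 of complex I and 3 of 13 of complex IV. The YY1 motif was in 7 genes of complex I (Ndufa3, Ndufa9, Ndufb8, Ndufc1, Ndufs4, Ndufs6 and Ndufs7) and 3 of complex V (Atp5j, Atp5j2 and Atp5pb). A match is a run of letters and not a measured binding site.

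Values are log2 expression, 1 per probe set and array, and an adjusted p under 0.05 made a gene a call. The sort markers matched the labels. Itgae (CD103) had group means of 9.37 and 8.84 in the untreated CD103+ subsets and 6.35 in CD103-CD11b+ cells, and Itgam (CD11b) had 5.14 in CD103+CD11b- cells against 7.31 and 7.93 in the others. After DSS, Itgae was higher in the CD103-CD11b+ sort than without it, by 1.08 ± 0.13 (SE). Xcr1, a marker of conventional type 1 dendritic cells, was highest in CD103+CD11b- cells (9.62 untreated, 9.48 after DSS). Genes of colon epithelium were above the filter level: the mean of 14 of 14 markers ran from 8.03 to 8.35 in untreated and from 7.63 to 7.94 in DSS groups. Their summed linear signal was 5325 to 6916, 6336 to 8904 and 5462 to 8270 in untreated CD103+CD11b-, CD103+CD11b+ and CD103-CD11b+ arrays, and 4396 to 5758, 5864 to 6260 and 5166 to 6387 after DSS. Fewer cells of a type and less RNA per cell cannot be told apart in such bulk samples.

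Respiratory chain expression differed little between the 6 groups. The mean over the 90 genes was 7.73 ± 0.02 (SD, n = 3) in untreated CD103+CD11b-, 7.87 ± 0.12 in CD103+CD11b+ and 7.74 ± 0.07 in CD103-CD11b+ cells. After DSS it was 7.77 ± 0.01, 7.79 ± 0.09 and 7.88 ± 0.07 in the same order. The range of a gene's 6 group means had a median of 0.327 over the 90 genes and 0.382 over all genes tested. It exceeded 1, a 2-fold difference, for Cox6b2 alone (1.11% of the 90, against 7.06% of all genes). Sdhd (0.889), Ndufaf2 (0.661), Ndufs4 (0.611) and Ndufb3 (0.577) had the next largest ranges.

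**Figure D1:**
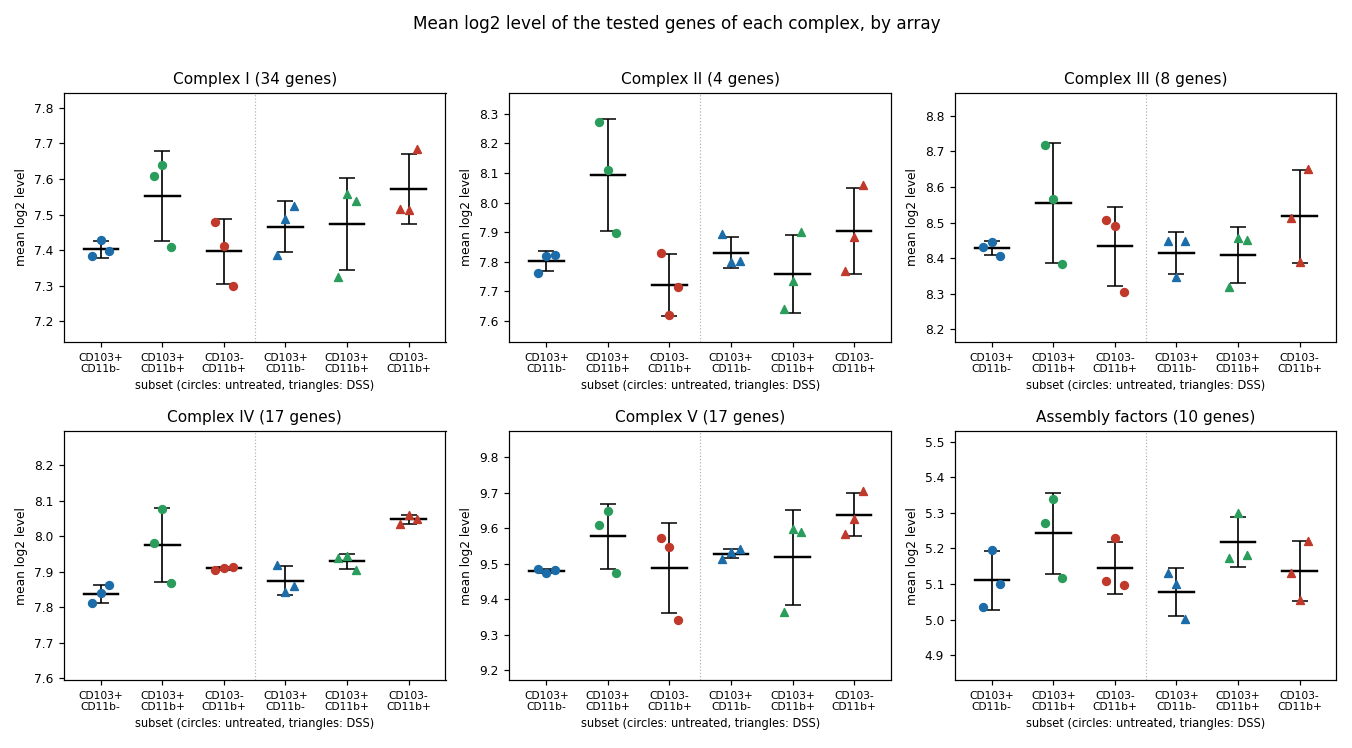
Mean log2 expression of the tested genes of each complex on every array, 1 panel per complex, with circles for untreated and triangles for DSS arrays, a bar at the group mean and an error bar of 1 SD (n = 3). In CD103-CD11b+ cells the DSS arrays stand above the untreated arrays in complexes I, IV and V. Their ranges are 7.51 to 7.69 against 7.30 to 7.48 in complex I and 9.58 to 9.70 against 9.34 to 9.57 in complex V. In complex IV the means are 8.05 ± 0.01 against 7.91 ± 0.00. The arrays of these groups overlap in complexes II and III and in the assembly factors.

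Of 13 comparisons with limma, 1 called a respiratory chain gene. In untreated mice, CD103+CD11b- set against CD103-CD11b+ cells had 10.3% of all genes called and 1 of the 90, Ndufb11, which was higher in CD103+CD11b- cells. In that comparison 7 of the 90 and 2800 of all 14003 genes had an unadjusted p under 0.05. CD103+CD11b- against CD103+CD11b+ cells gave 0 of 90 calls beside 6.86% of all genes (12 at an unadjusted p under 0.05, against 2617 of all), and CD103+CD11b+ against CD103-CD11b+ cells gave 0 beside 4.11% (9 at an unadjusted p under 0.05, against 2250 of all). With the experiment number as a replicate block the last pair had 1 call (Sdhd). After DSS, limma called 0 of 90 in each pair of subsets without that block, and with it Cox6b2 in both pairs that include CD103+CD11b- cells. The shares of all genes called were 8.53% for CD103+CD11b- against CD103-CD11b+, 5.96% for CD103+CD11b- against CD103+CD11b+ and 1.58% for CD103+CD11b+ against CD103-CD11b+, and 11, 5 and 3 of the 90 had an unadjusted p under 0.05 (12.2%, 5.56% and 3.33%, against 18.2%, 15.4% and 9.61% of all genes). DSS against untreated cells also gave 0 of 90 calls by limma in every subset. There the shares of all genes were 0.129% in CD103+CD11b-, 0.0857% in CD103+CD11b+ and 0.1% in CD103-CD11b+ cells, and 1, 3 and 7 of the 90 had an unadjusted p under 0.05 (1.11%, 3.33% and 7.78%, against 6.08%, 10.1% and 7.67% of all genes). Over the experiment means it was 0 of 90 beside 0.186% of all genes (5 at an unadjusted p under 0.05, 5.56% against 10.5% of all genes). The interactions called 0% of all genes, and 1, 3 and 5 of the 90 had an unadjusted p under 0.05 (1.11%, 3.33% and 5.56%, against 3.64%, 4.83% and 5.56% of all genes).

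Small differences ran the same way in many of the genes in some comparisons, and they are given without a test. In untreated cells the median difference between CD103+CD11b+ and CD103-CD11b+ was 0.11 with 70 of 90 genes above zero, against 0.07 over all genes. Quantile normalization applied again brought these to 0.04 and 54 of 90. By complex, it turned the sign of the median in complex IV (0.08 with 13 of 17 above zero, then -0.01 with 8). The same held in complex V (0.08 with 14 of 17, then -0.01 with 8) and the assembly factors (0.02, then -0.01). Complexes I, II and III kept medians above zero in this comparison (0.09, 0.22 and 0.04 after it). All 11 genes whose groups did not overlap there were higher in CD103+CD11b+ cells (12.2% of the 90, against 12% of all genes higher and 5.4% lower). CD103+CD11b- minus CD103+CD11b+ cells had a median of -0.11 with 17 of 90 above zero, against -0.06 over all genes (-0.08 and 25 of 90 after the added normalization). The untreated CD103+CD11b+ arrays were spread more than those of the CD103+CD11b- group, with means over the 90 genes of 7.93, 7.95 and 7.74. The low one is replicate 3. Without it the median against CD103-CD11b+ cells was 0.18, and without replicate 1 it was 0.06. These fits left out only the CD103+CD11b+ array of the replicate. The CD103-CD11b+ array of replicate 3, also the lowest of its group (7.66), was kept in them. For colon epithelium markers the same untreated difference was above zero in 13 of 14 genes (median 0.18, 1 called), and their mean was lowest in replicate 3 in each untreated subset (7.73, 8.03 and 7.84). The part of these markers in the medians was not tested. After DSS, CD103+CD11b- minus CD103-CD11b+ cells had a median of -0.10 with 28 of 90 above zero, against -0.01 over all genes (-0.09 and 30 of 90 after the added normalization). There 18 of the 90 were lower and 3 higher with no overlap, beside 12.8% and 11.8% of all genes.

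With DSS, CD103-CD11b+ cells had a median difference from untreated of 0.15 with 74 of 90 genes above zero, against 0.03 over all genes. The added normalization gave 0.08 and 65 of 90. Of the 90, 11 were higher (7.58% of all genes) and 2 lower (3.94%) with no overlap between the groups. The mean over the 90 genes was 7.84, 7.84 and 7.96 on the DSS arrays and 7.80, 7.77 and 7.66 on the untreated arrays, so the groups did not overlap. In CD103+CD11b+ cells the median was -0.07 with 26 of 90 above zero, against -0.06 over all genes (-0.02 and 40 of 90 after the added normalization). In CD103+CD11b- cells it was 0.03 with 54 above zero, and its sign turned with the added normalization (-0.0042 and 44 above zero). The DSS change in CD103+CD11b+ minus that in CD103-CD11b+ cells had a median of -0.20 with 13 of 90 above zero, against -0.09 over all genes (-0.11 and 20 of 90 after the added normalization). No interaction of a single gene passed the test. The epithelial markers ran the other way from the respiratory chain in CD103-CD11b+ cells, being lower after DSS in 13 of 14 genes (median -0.25, 0 called by limma and 2 at an unadjusted p under 0.05). Other marker lists ran with it in these cells. The mean of 7 neutrophil markers was 4.85 to 5.23 on the untreated and 5.35 to 6.30 on the DSS arrays of these cells, with 5 of 7 above zero and a summed linear signal of 243 to 382 against 374 to 978. That of 6 eosinophil and mast cell markers was 5.08 to 5.57 untreated and 5.65 to 5.899 after DSS, with 6 of 6 above zero and a summed linear signal of 509 to 712 against 709.5 to 784. In both lists limma called 0 genes, with 4 and 2 at an unadjusted p under 0.05. The mean of 11 sort markers was 6.70 to 6.95 on the untreated and 7.13 to 7.25 on the DSS arrays, with Itgae and Clec9a called higher. B and plasma cell markers went from a mean of 7.59 to 7.38, and macrophage and monocyte markers from 7.90 to 7.81. Lymphoid (6.30 and 6.29) and stromal markers (6.12 and 6.11) stayed level. After DSS the neutrophil mean also rose in CD103+CD11b- cells (4.55 to 5.42) and CD103+CD11b+ cells (4.65 to 5.54). That of eosinophil and mast cell markers rose too (5.26 to 5.72 and 5.29 to 5.72). The sort marker mean went from 7.60 to 7.85 and from 7.37 to 7.36. In these 2 subsets the respiratory chain mean went from 7.73 to 7.77 and from 7.87 to 7.79. The part of the marker lists in the respiratory chain values was not tested.

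**Figure D2:**
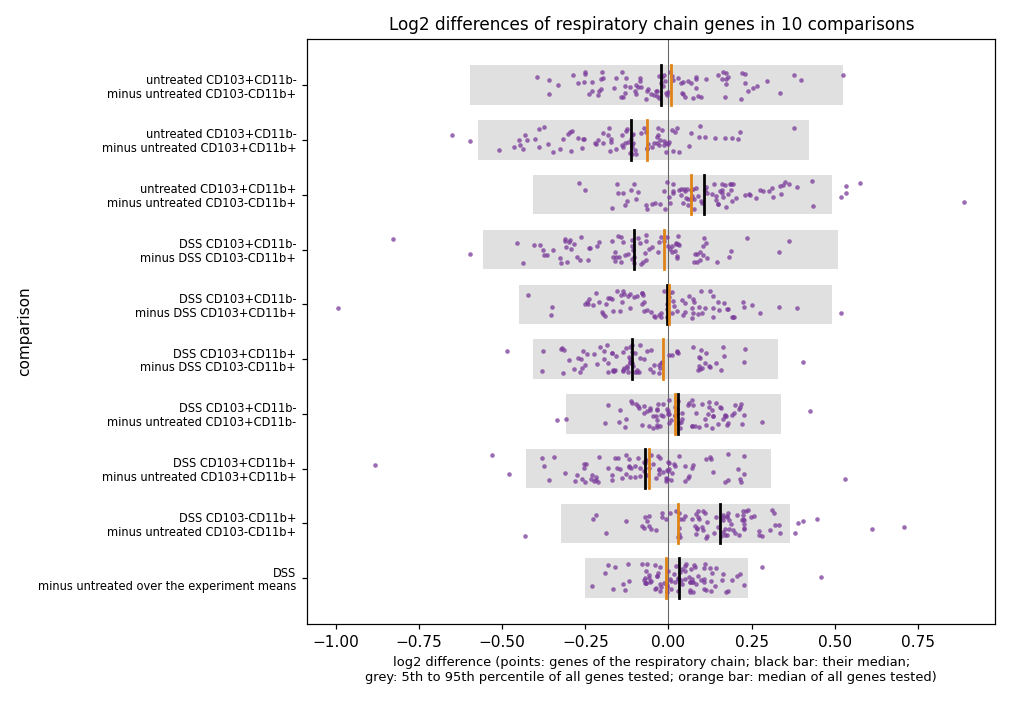
Log2 differences of the 90 genes (points) in 10 comparisons, with a black bar at their median, an orange mark at the median of all genes tested and a grey band from the 5th to the 95th percentile of all genes. Most points lie inside the grey band, and the median farthest from zero is 0.15, for DSS minus untreated in CD103-CD11b+ cells.

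Complex I takes electrons from NADH. Its mean over 34 genes was 7.40 ± 0.02, 7.55 ± 0.13 and 7.40 ± 0.09 (SD, n = 3) in untreated CD103+CD11b-, then CD103+CD11b+, then CD103-CD11b+ cells, and 7.47 ± 0.07, 7.47 ± 0.13 and 7.57 ± 0.10 after DSS. The core subunit Ndufs1, which carries iron-sulfur clusters, had means of 5.87, 6.01 and 5.70 untreated and 6.09, 5.90 and 6.02 after DSS. Ndufv1, which binds NADH, had 6.63, 6.52 and 6.47 untreated and 6.50, 6.52 and 6.79 after DSS. Neither was called in a comparison. The DSS difference in CD103-CD11b+ cells was above zero for 29 of 34 genes of complex I (median 0.19, 0 called by limma, 3 at an unadjusted p under 0.05). The DSS change in CD103+CD11b+ minus that in CD103-CD11b+ cells was above zero for 2 of 34 (median -0.26, against -0.09 over all genes). The added normalization gave 4 of 34 and -0.14, against -0.03 over all genes.

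Ndufb11 was 9.55, 9.41 and 9.79 on the untreated CD103+CD11b- arrays and 9.11, 8.97 and 9.09 on the CD103-CD11b+ arrays. Every CD103+CD11b- array was above every CD103-CD11b+ array. The untreated CD103+CD11b+ arrays, at 9.26, 9.42 and 8.94, overlapped both. The difference between CD103+CD11b- and CD103-CD11b+ cells was 0.53 ± 0.15 (SE, limma adjusted p = 0.0317). The call was lost in 6 of 13 alternative analyses, whose adjusted p ran from 0.0142 to 0.152. Among them were the fits without untreated CD103+CD11b- replicate 1 (0.0702) or replicate 3 (0.152), and without CD103-CD11b+ replicate 1 (0.0587), replicate 2 (0.101) or replicate 3 (0.0607). After DSS, Ndufb11 was 9.49, 9.72 and 9.15 in CD103+CD11b- and 9.04, 9.17 and 9.07 in CD103-CD11b+ cells, a difference of 0.36 ± 0.15 with 1 array overlapping (adjusted p = 0.189). The positions of the probe sets were not used here, so whether the one that stands for Ndufb11 reads the gene or a near-identical copy was not checked, and the value is uncertain in that respect. A second probe set of Ndufb11 gave a difference of 0.50 in untreated cells and 0.59 after DSS, and it correlated with the first at 0.66 over the 18 arrays. Markers of macrophages and monocytes (10 genes) also differ between these untreated subsets, with a summed linear signal of 1190 to 1320 on CD103+CD11b- and 4263 to 6794 on CD103-CD11b+ arrays, and their part in the difference was not tested.

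Ndufs4 was 7.68, 7.67 and 7.34 in untreated and 8.26, 7.89 and 8.36 in DSS CD103-CD11b+ cells. The DSS arrays were all above the untreated ones, by 0.61 ± 0.15, which did not pass the test (adjusted p = 0.154, and 0.0798 to 0.693 over 12 alternatives). In CD103+CD11b- cells the gene was 8.02, 8.01 and 7.78 untreated and 7.97, 8.02 and 8.15 after DSS. In CD103+CD11b+ cells it was 7.73, 7.88 and 7.93 untreated and 7.77, 8.19 and 7.98 after DSS, so both CD103+ subsets overlapped across conditions. The difference over the experiment means was 0.28 ± 0.09 (adjusted p = 0.322). Ndufa3, another accessory subunit of complex I, had a difference of 0.23 ± 0.08 over the experiment means (adjusted p = 0.376).

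**Figure D3:**
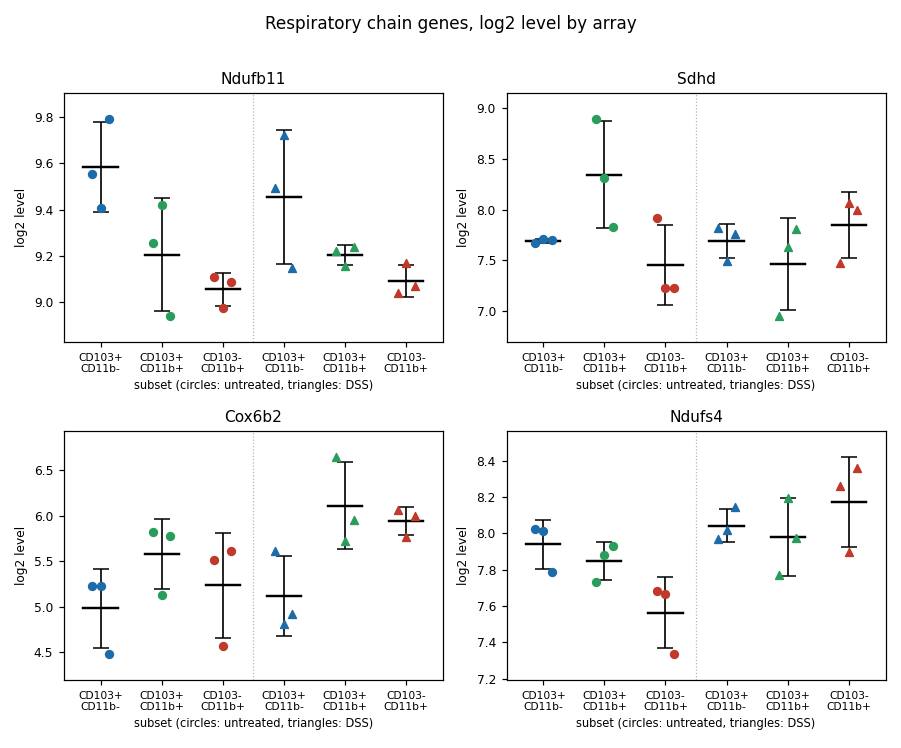
Log2 expression of Ndufb11, Sdhd, Cox6b2 and Ndufs4 on every array (points), by group, with circles for untreated and triangles for DSS, a bar at the group mean and an error bar of 1 SD (n = 3). Ndufb11 is highest in CD103+CD11b- cells, Sdhd is highest and most spread in untreated CD103+CD11b+ cells, and Ndufs4 is lowest in untreated CD103-CD11b+ cells.

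Further genes of complex I came near the threshold without passing it in the main fit. Ndufab1, the mitochondrial acyl carrier protein, was 8.58, 8.70 and 9.37 in untreated CD103+CD11b+ and 8.52, 8.13 and 8.40 in CD103-CD11b+ cells. The difference of 0.53 ± 0.16 (adjusted p = 0.0802, and 0.0396 to 0.671 over 13 alternatives) was 0.29 without CD103+CD11b+ replicate 3 and 0.20 when the kept probe sets of the gene were averaged. Ndufv3, an accessory subunit next to the NADH site, was 6.83, 6.71 and 7.09 in untreated CD103+CD11b- and 7.26, 7.41 and 7.15 in CD103-CD11b+ cells. The difference was -0.40 ± 0.13 (adjusted p = 0.0724, and 0.0390 to 0.273 over 13 alternatives, the call being made in 1). After DSS the same pair differed by -0.37 ± 0.13 (adjusted p = 0.106), again with no overlap between groups. Ndufs8, an iron-sulfur subunit, differed by 0.52 ± 0.18 between DSS CD103+CD11b- and CD103+CD11b+ cells (adjusted p = 0.110), with overlapping arrays.

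Complex II, whose 4 subunits are all encoded in the nucleus, had the most uneven means. They were 7.80 ± 0.03, 8.09 ± 0.19 and 7.72 ± 0.10 (SD, n = 3) in untreated CD103+CD11b-, then CD103+CD11b+, then CD103-CD11b+ cells, and 7.83 ± 0.05, 7.76 ± 0.13 and 7.90 ± 0.15 after DSS. The arrays of untreated CD103+CD11b+ cells, at 8.27, 8.11 and 7.90, all lay above those of the other untreated subsets. The catalytic subunits had close group means. Sdha, the flavoprotein, had means of 7.58, 7.61 and 7.61 untreated and 7.70, 7.52 and 7.60 after DSS, and Sdhb, the iron-sulfur subunit, 7.96, 7.98 and 7.81 untreated and 8.04, 7.97 and 7.96 after DSS. The uneven genes were the membrane anchors.

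Sdhd was 8.89, 8.31 and 7.83 in untreated CD103+CD11b+ cells. It was 7.67, 7.71 and 7.70 in untreated CD103+CD11b- and 7.92, 7.23 and 7.23 in CD103-CD11b+ cells. All CD103+CD11b+ arrays were above the CD103+CD11b- arrays, and 1 of them overlapped the CD103-CD11b+ arrays. CD103+CD11b- minus CD103+CD11b+ cells gave -0.65 ± 0.26 (adjusted p = 0.159, and 0.0398 to 0.550 over 13 alternatives). CD103+CD11b+ minus CD103-CD11b+ cells gave 0.89 ± 0.26 (limma adjusted p = 0.0582). With the experiment number as a replicate block it was called (adjusted p = 0.0206), and over 13 alternatives the adjusted p ran from 0.0198 to 0.274, the highest without CD103+CD11b+ replicate 1, where the difference was 0.62. After DSS, Sdhd in CD103+CD11b+ cells was 6.95, 7.63 and 7.81, below each untreated array of that subset, a difference of -0.88 ± 0.26 (adjusted p = 0.263). In CD103-CD11b+ cells it was 7.47, 8.07 and 7.99 after DSS, overlapping the untreated arrays. The DSS changes in these subsets differed by -1.27 ± 0.36 (adjusted p = 0.869 in a test where limma called 0 of all genes).

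Sdhc, the other membrane anchor, was 8.56, 8.54 and 8.21 in untreated CD103+CD11b+ and 7.85, 8.07 and 7.99 in CD103+CD11b- cells. The CD103+CD11b- arrays were all lower, by -0.46 ± 0.17 (adjusted p = 0.137). In CD103-CD11b+ cells Sdhc was 8.13, 7.66 and 8.23, and the difference from CD103+CD11b+ cells was 0.43 ± 0.17 (adjusted p = 0.211). After DSS the CD103+CD11b+ arrays were 8.09, 8.14 and 8.01, each below the untreated arrays of the subset.

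Complex III passes electrons from ubiquinol to cytochrome c. Its mean over 8 genes was 8.43 ± 0.02, 8.56 ± 0.17 and 8.43 ± 0.11 (SD, n = 3) untreated and 8.41 ± 0.06, 8.41 ± 0.08 and 8.52 ± 0.13 after DSS. Uqcrc2, a core protein of the complex, was 8.40, 8.36 and 7.96 in untreated CD103-CD11b+ cells. It was 8.56, 8.68 and 8.49 in CD103+CD11b- and 8.70, 8.47 and 8.56 in CD103+CD11b+ cells, both wholly above. The differences were 0.34 ± 0.13 (adjusted p = 0.134) and 0.34 ± 0.13 (adjusted p = 0.189). Uqcrc1, the other core protein, was 8.02, 8.18 and 7.32 in untreated CD103+CD11b+ cells and 7.42, 7.40 and 7.35 in CD103+CD11b- cells. The difference of -0.45 ± 0.18 (adjusted p = 0.170) rests on replicates 1 and 2, since replicate 3 lay below all CD103+CD11b- arrays. Uqcrfs1, the Rieske iron-sulfur protein, had means of 7.69, 7.48 and 7.52 untreated and 7.61, 7.41 and 7.61 after DSS.

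Complex IV reduces oxygen, and several of its subunits exist as isoforms that differ between tissues. Its mean over 17 tested genes was 7.84 ± 0.03, 7.98 ± 0.10 and 7.91 ± 0.00 (SD, n = 3) untreated and 7.87 ± 0.04, 7.93 ± 0.02 and 8.05 ± 0.01 after DSS. The DSS difference in CD103-CD11b+ cells was above zero for 16 of 17 genes (median 0.10, and 14 of 17 with a median of 0.05 after the added normalization), with 0 called by limma and 1 at an unadjusted p under 0.05. Cox4i1, the common isoform of subunit 4, was at 10.03 ± 0.13, 10.11 ± 0.18 and 9.97 ± 0.07 untreated and 9.99 ± 0.08, 9.95 ± 0.14 and 10.05 ± 0.03 after DSS. Cox5a, which with Cox5b encodes the subunits next to it, had means of 9.24, 9.46 and 9.45 untreated and 9.24, 9.36 and 9.54 after DSS. Cox5b had 9.98, 10.16 and 10.04 untreated and 9.98, 9.91 and 10.09 after DSS.

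The isoforms known from lung, muscle, heart or testis were near the filter level of 3.51 in most cases. Cox4i2, the lung isoform induced by low oxygen, had means of 3.88, 3.99 and 4.24 untreated and 3.94, 3.98 and 4.01 after DSS. Cox6a2, the heart and muscle isoform, had 3.99, 4.05 and 4.22 untreated and 3.94, 3.92 and 4.24 after DSS, and Cox8b, another muscle isoform, 3.81, 3.79 and 3.95 untreated and 3.71, 3.84 and 3.98 after DSS. Cox8c and Cox7b2, known from testis, were under 3.51 on all 18 arrays. Ndufa4l2, a hypoxia-induced relative of the complex IV subunit Ndufa4, had means of 3.52, 3.65 and 3.54 untreated and 3.74, 3.63 and 3.65 after DSS, and was above the filter level on 13 arrays. Ndufa4 itself had 9.99, 10.26 and 9.996 untreated and 10.20, 10.05 and 10.24 after DSS. The common isoforms Cox6a1 (11.03, 11.07 and 11.03 untreated, 10.996, 10.9998 and 11.13 after DSS), Cox7a2 (7.70, 7.78 and 7.72, then 7.74, 7.84 and 7.95) and Cox8a (8.87, 9.24 and 9.07, then 9.01, 9.25 and 9.25) were not called in any comparison. Cox7a1, the muscle isoform, had means of 5.98, 6.16 and 5.999 untreated and 5.68, 5.81 and 6.08 after DSS, and Cox7a2l, which takes part in supercomplexes, 9.21, 9.07 and 8.99 untreated and 9.32, 9.24 and 9.21 after DSS. AA467197, a relative of Ndufa4 known as Nmes1 and outside the symbol rule, had means of 8.56, 8.48 and 8.38 untreated and 7.96, 8.24 and 8.47 after DSS. Its lowest group, DSS CD103+CD11b-, differed from DSS CD103-CD11b+ by -0.52 ± 0.16 (adjusted p = 0.0505).

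Cox6b2, known as the testis isoform of subunit 6B, was farther above the filter level, as was Cox7a1. In untreated cells it was 5.23, 5.23 and 4.48 in CD103+CD11b-, 5.82, 5.13 and 5.78 in CD103+CD11b+ and 5.51, 4.57 and 5.62 in CD103-CD11b+ cells, with all subsets overlapping. After DSS it was 5.62, 4.81 and 4.92 in CD103+CD11b-, 6.64, 5.72 and 5.96 in CD103+CD11b+ and 6.06, 5.77 and 5.997 in CD103-CD11b+ cells. The DSS CD103+CD11b- arrays lay below all arrays of both other DSS subsets. The difference from CD103+CD11b+ cells was -0.99 ± 0.30 (adjusted p = 0.0575) and became a call with the replicate block (adjusted p = 0.0170, within 0.0170 to 0.300 over 13 alternatives, the call being made in 4). The difference from CD103-CD11b+ cells was -0.83 ± 0.30 (adjusted p = 0.109) and was also called with the block (adjusted p = 0.0382, within 0.0347 to 0.331 over 13 alternatives). The common isoform Cox6b1 had means of 10.48, 10.70 and 10.52 untreated and 10.66, 10.53 and 10.63 after DSS. In CD103-CD11b+ cells the DSS arrays of Cox6b2 were all above the untreated ones, by 0.71 ± 0.30 (adjusted p = 0.578).

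Complex V makes ATP. Its mean over 17 genes was 9.48 ± 0.01, 9.58 ± 0.09 and 9.49 ± 0.13 (SD, n = 3) untreated and 9.53 ± 0.01, 9.52 ± 0.13 and 9.64 ± 0.06 after DSS, where 16 of 17 genes were above zero in CD103-CD11b+ cells (median 0.14, 0 called by limma, 2 at an unadjusted p under 0.05; 13 of 17 and a median of 0.07 after the added normalization). The catalytic subunits had close group means: Atp5a1 had means of 9.57, 9.61 and 9.47 untreated and 9.60, 9.51 and 9.62 after DSS, and Atp5b 9.34, 9.45 and 9.30 untreated and 9.26, 9.28 and 9.33 after DSS. The 3 genes of the membrane ring, Atp5g1, Atp5g2 and Atp5g3, were not called either. On the probe set used, Atp5g2 was highest in untreated CD103+CD11b- cells (10.63) and lowest in DSS CD103+CD11b+ cells (10.21). Its 2 further probe sets, correlated with that one at 0.41 and 0.42, did not keep this order. Atp5g1 ran from 9.46 in DSS CD103+CD11b+ to 9.77 in DSS CD103-CD11b+ cells, and Atp5g3 from 9.66 to 9.80.

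Atp5k, the subunit e that links ATP synthase dimers, was 9.03, 9.002 and 9.25 in untreated CD103+CD11b- cells. It was 9.45, 9.74 and 9.30 in CD103+CD11b+ and 9.40, 9.60 and 9.29 in CD103-CD11b+ cells, each wholly above, and the differences were -0.40 ± 0.16 (adjusted p = 0.151) and -0.33 ± 0.16 (adjusted p = 0.235). After DSS it was 9.30, 9.04 and 9.32 in CD103+CD11b-, 8.89, 9.22 and 9.24 in CD103+CD11b+ and 9.46, 9.49 and 9.86 in CD103-CD11b+ cells. The CD103-CD11b+ arrays were now above both other subsets, and the difference of CD103+CD11b+ from them was -0.49 ± 0.16 (adjusted p = 0.168). Atp5d, the delta subunit of the rotating stalk, had an untreated difference of -0.43 ± 0.16 for CD103+CD11b- minus CD103+CD11b+ cells (adjusted p = 0.118), with no overlap.

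The assembly and other factors under the same prefixes had means of 5.11 ± 0.08, 5.24 ± 0.11 and 5.14 ± 0.07 (SD, n = 3) untreated and 5.08 ± 0.07, 5.22 ± 0.07 and 5.14 ± 0.08 after DSS. Their median DSS difference in CD103-CD11b+ cells was -0.04, against 0.19 in complex I. In untreated CD103+CD11b- minus CD103+CD11b+ cells it was -0.12, beside -0.14 in complex I. Ndufaf2, an assembly factor of complex I, was 5.23, 5.00 and 4.60 in DSS CD103+CD11b- and 5.47, 5.38 and 5.77 in DSS CD103-CD11b+ cells, a difference of -0.60 ± 0.23 with no overlap (adjusted p = 0.152). Ndufaf5, another, was 5.44, 5.31 and 5.02 in DSS CD103+CD11b+ and 4.70, 4.86 and 5.00 in DSS CD103-CD11b+ cells, a difference of 0.41 ± 0.15 (adjusted p = 0.291).

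**Figure D4:**
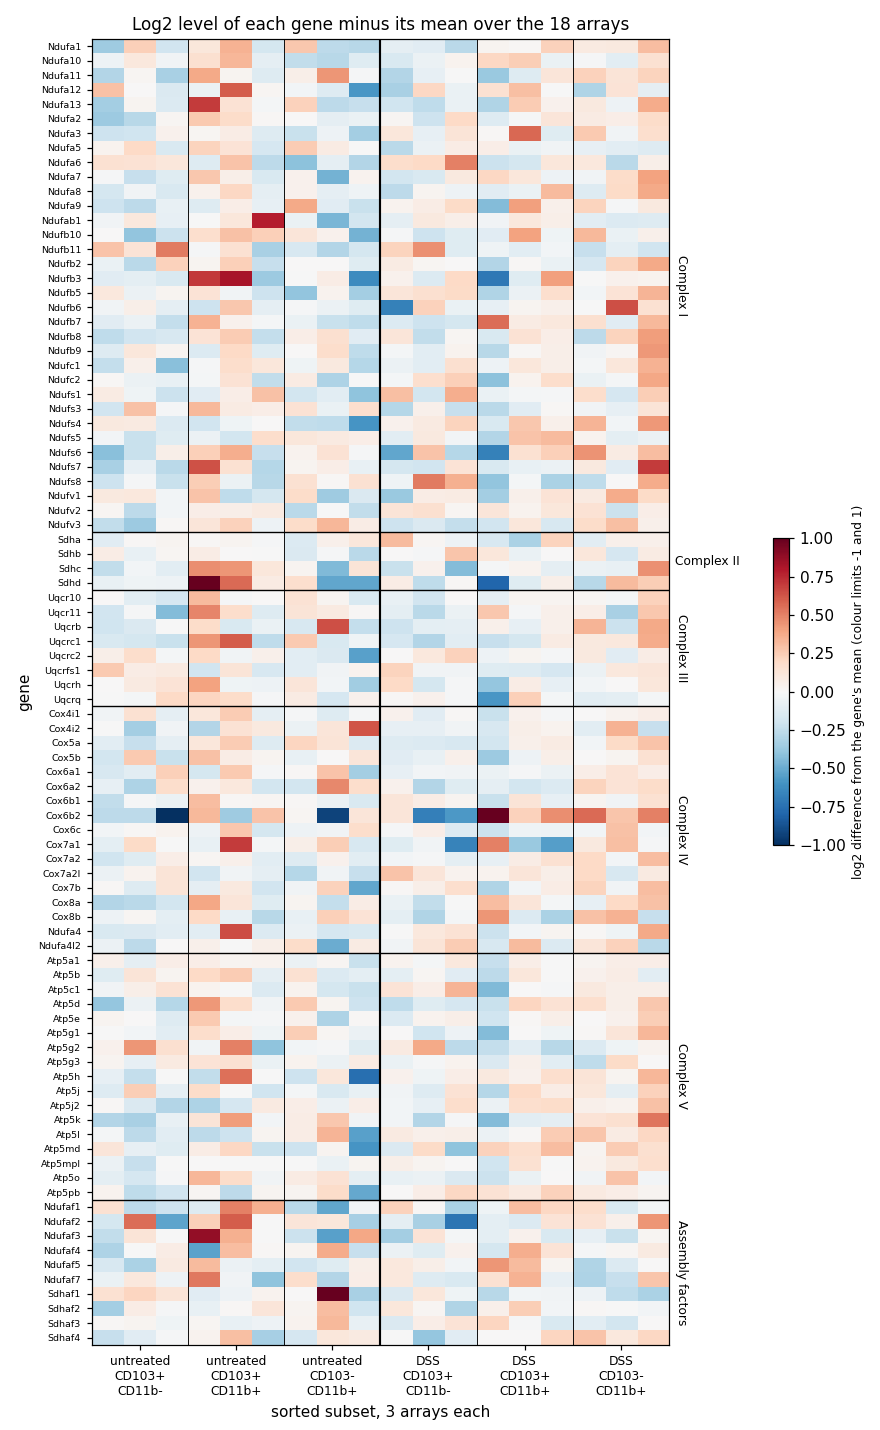
Log2 expression of the 90 tested genes (rows, by complex) on the 18 arrays (columns, by group), each minus the gene's mean over the arrays, with colours limited at -1 and 1. Most cells are pale, and Sdhd and Cox6b2 carry some of the strongest colours.

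The data bound most differences tightly. In each of the 9 comparisons of 2 groups, the 95% interval of the difference lay within 2-fold for 87 to 90 of the 90 genes. It lay within 1.5-fold for 63 to 82. Of the other genes tested, 90.1% to 97.1% lay within 2-fold and 59.3% to 72.6% within 1.5-fold. In DSS against untreated CD103+CD11b- cells 82 of 90 lay within 1.5-fold. Over the experiment means 89 of 90 lay within 1.5-fold, against 94.1% of the other genes tested. For the interactions the bounds were wider, with 23 to 42 of 90 within 1.5-fold, against 29.6% to 34.1% of the other genes. In the interaction of CD103+CD11b+ and CD103-CD11b+ cells the share of the 90 was below that of the other genes (25.6% against 29.6%). Probe sets limit this: 18 of the genes have 25 further probe sets, whose correlation with the one used over the 18 arrays had a median of 0.42 and ran from -0.41 (Atp5l) to 0.94.

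Beyond the symbol rule, single genes of mitochondrial function differed between subsets. The lists of such mitochondrial genes are described by counts, and none held a call for DSS against untreated cells. Only 2 of 13 subunits encoded in mitochondrial DNA were on the arrays: ND3 had means of 12.01, 11.87 and 12.03 untreated and 12.02, 12.03 and 12.03 after DSS, and COX2 10.82, 10.80 and 10.86 untreated and 10.90, 10.94 and 10.99 after DSS. In the list of cytochrome c and other subunits, Atpif1, the inhibitor of the ATP synthase, was called higher in untreated CD103+CD11b- than CD103-CD11b+ cells (0.54 ± 0.15, adjusted p = 0.0282), and the other 6 were not called. That call was lost in 4 of 13 alternatives, among them the fits without CD103+CD11b- replicate 2 or 3 or without CD103-CD11b+ replicate 3 (adjusted p of 0.0108 to 0.151 over all 13).

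Sco1, which delivers copper to complex IV, was 6.34, 6.47 and 6.19 in DSS CD103+CD11b- cells. It was 5.21, 5.46 and 4.63 in DSS CD103+CD11b+ and 5.39, 5.48 and 5.39 in DSS CD103-CD11b+ cells, with no overlap. The differences were 1.24 ± 0.22 (adjusted p = 0.00113, called in 13 of 13 alternatives) and 0.91 ± 0.22 (adjusted p = 0.0108, lost without CD103+CD11b- replicate 5, up to 0.0528). In untreated cells it was also called higher in CD103+CD11b- cells, by 0.77 ± 0.22 and 0.76 ± 0.22 (adjusted p = 0.0415 and 0.0343), but these calls were lost in 7 and 5 of 13 alternatives, in each case without CD103+CD11b- replicate 2 or 3 and without single arrays of the other subset (adjusted p up to 0.208 and 0.204). Of the 32 assembly factors outside the prefixes, the other calls were Cox15 (heme A synthesis, lower in untreated CD103+CD11b- than CD103-CD11b+ cells, -0.70 ± 0.18), Bcs1l (complex III assembly, higher in untreated CD103+CD11b+ than CD103-CD11b+ cells, 0.73 ± 0.20) and Timmdc1 (complex I assembly, higher in DSS CD103+CD11b- than CD103+CD11b+ cells, 0.52 ± 0.14). These 3 calls were lost in 4, 5 and 5 of 13 alternatives, mostly fits without 1 array (adjusted p up to 0.0788, 0.171 and 0.146).

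In the tricarboxylic acid cycle, Mdh2, mitochondrial malate dehydrogenase, was 9.93, 10.04 and 10.14 in untreated CD103+CD11b- cells. It was 10.88, 10.61 and 10.70 in CD103+CD11b+ and 10.77, 10.34 and 10.70 in CD103-CD11b+ cells, all higher. It was called lower in CD103+CD11b- cells in both pairs and in both conditions, by -0.57 to -0.73. The call against DSS CD103-CD11b+ cells (-0.73 ± 0.16, adjusted p = 0.00522) was kept in 13 of 13 alternatives, and the untreated one against CD103+CD11b+ cells (-0.69 ± 0.16, adjusted p = 0.00964) was lost without CD103+CD11b+ replicate 1. The other 2 were lost in 4 and 5 of 13. Acod1, which makes itaconate, an inhibitor of succinate dehydrogenase, was 5.10, 4.65 and 4.83 in untreated CD103+CD11b- and 6.67, 6.29 and 6.92 in CD103-CD11b+ cells (-1.76 ± 0.37, adjusted p = 0.00313, kept in 13 of 13 alternatives). Markers of macrophages and monocytes moved with it, their mean log2 level being 6.15 in CD103+CD11b- and 7.90 in CD103-CD11b+ cells, and their part in it was not tested. After DSS, Acod1 was 4.89, 5.82 and 6.63 in CD103+CD11b- and 7.03, 7.19 and 6.63 in CD103-CD11b+ cells. Those groups overlapped and the gene was not called between them. Sucla2, a subunit of succinyl-CoA synthetase, was called higher in untreated CD103+CD11b- than CD103-CD11b+ cells (0.52 ± 0.16, adjusted p = 0.0433), a call lost in 6 of 13 alternatives (adjusted p up to 0.181), among them the replicate block (0.0507). The other 16 of 19 genes tested were not called.

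**Figure D5:**
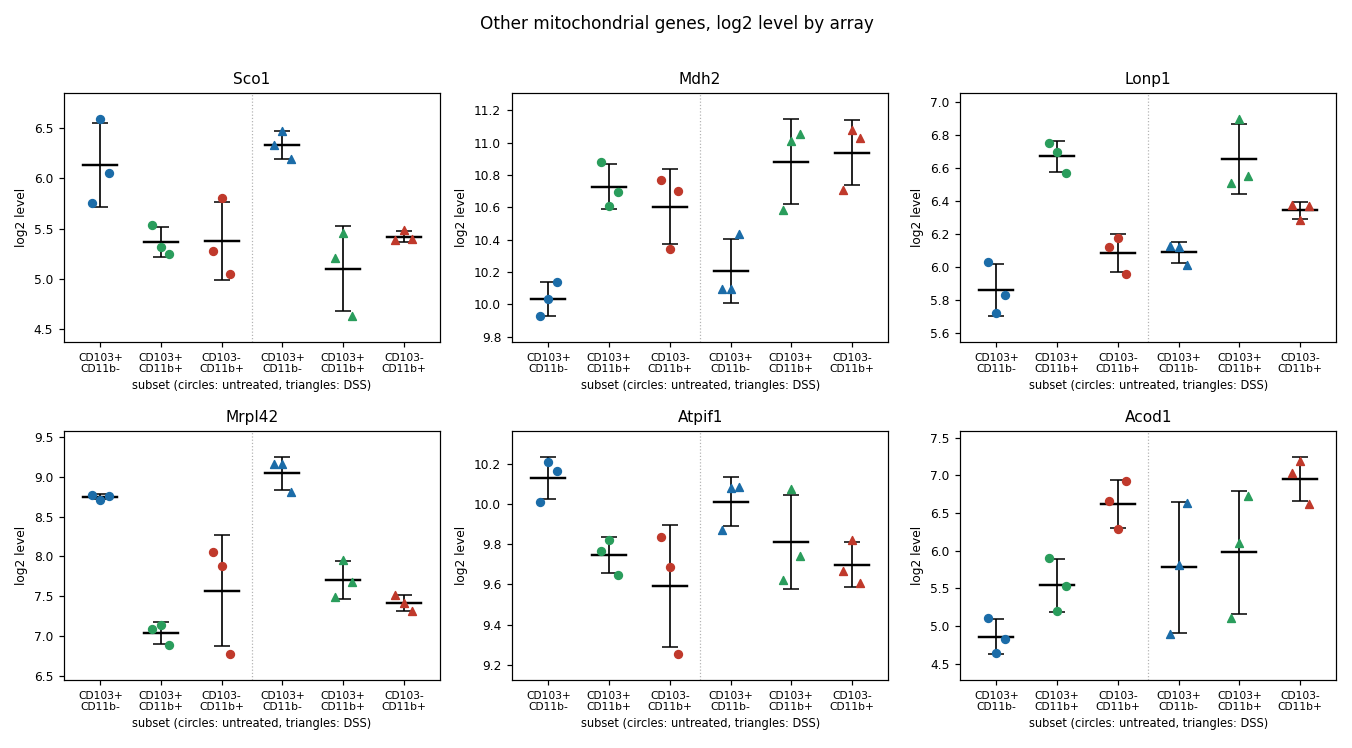
Log2 expression of Sco1, Mdh2, Lonp1, Mrpl42, Atpif1 and Acod1 on every array (points), by group, with circles for untreated and triangles for DSS, a bar at the group mean and an error bar of 1 SD (n = 3). Mrpl42 and Sco1 are highest and Mdh2 lowest in CD103+CD11b- cells of both conditions, and Lonp1 is highest in CD103+CD11b+ cells.

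Lonp1, the protease of the mitochondrial matrix, was 6.75, 6.70 and 6.57 in untreated CD103+CD11b+ cells. It was 6.03, 5.72 and 5.83 in CD103+CD11b- and 6.12, 6.18 and 5.96 in CD103-CD11b+ cells, both wholly below. CD103+CD11b- minus CD103+CD11b+ cells gave -0.81 ± 0.13 (adjusted p = 0.000259, kept in 13 of 13 alternatives) and, after DSS, -0.56 ± 0.13 (adjusted p = 0.00909, lost without CD103+CD11b+ replicate 5). CD103+CD11b+ minus CD103-CD11b+ cells gave 0.59 ± 0.13 untreated (adjusted p = 0.0123, lost without CD103+CD11b+ replicate 1 and in a fit of these groups alone). Of the other 18 regulators, which include Nrf1, Gabpa, Yy1, Tfam and Ppargc1a, Hif1a alone was called, lower in DSS CD103+CD11b- than CD103-CD11b+ cells (-0.43 ± 0.12, adjusted p = 0.0346, lost in 6 of 13 alternatives).

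Mrpl42, a protein of the mitochondrial ribosome, differed between subsets in both conditions. It was 8.77, 8.71 and 8.76 in untreated CD103+CD11b- cells, 7.09, 7.14 and 6.88 in CD103+CD11b+ and 8.05, 7.88 and 6.78 in CD103-CD11b+ cells. After DSS it was 9.15, 9.16 and 8.81 in CD103+CD11b-, 7.49, 7.95 and 7.68 in CD103+CD11b+ and 7.52, 7.42 and 7.32 in CD103-CD11b+ cells. CD103+CD11b- cells were above every array of the other subsets in both conditions. The 4 differences ran from 1.18 ± 0.23 to 1.71 ± 0.23 (adjusted p from 4.48e-05 to 0.00161), and each was kept in 13 of 13 alternatives. The other 76 mitochondrial ribosomal proteins gave 3 calls: Mrps7 and Mrps27 higher in untreated CD103+CD11b+ than CD103-CD11b+ cells (0.88 ± 0.19 and 0.68 ± 0.19) and Mrpl3 higher in DSS CD103+CD11b- than CD103-CD11b+ cells (0.55 ± 0.16), lost in 4, 7 and 5 of 13 alternatives (adjusted p up to 0.139, 0.212 and 0.192), Mrps27 also with the replicate block (adjusted p = 0.0599). Over all 77 the untreated difference between CD103+CD11b+ and CD103-CD11b+ cells had a median of 0.18 with 66 above zero, beside 0.11 and 70 of 90 for the respiratory chain.

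Of 21 genes of import and cristae, 4 were called. Tomm70a, an import receptor of the outer membrane, was higher in both untreated CD103+ subsets than in CD103-CD11b+ cells (0.44 ± 0.13 and 0.48 ± 0.13), and Timm23, an inner membrane channel, in CD103+CD11b+ cells (0.49 ± 0.14). Slc25a4, an ADP/ATP carrier, was higher in DSS CD103+CD11b- than CD103-CD11b+ cells (0.51 ± 0.14), and Vdac2, an outer membrane channel, higher than in CD103+CD11b+ cells (0.54 ± 0.16). These calls were lost in 3 to 9 of 13 alternatives, those of Tomm70a (adjusted p = 0.0613 and 0.0727) and Vdac2 (0.0590) also with the replicate block. Of 61 cytosolic ribosomal proteins, set beside the others as abundant short transcripts, Rps27l and Rpl4 were called. Their untreated difference between CD103+CD11b+ and CD103-CD11b+ cells had a median of 0.14 with 52 of 61 above zero, and the DSS difference in CD103-CD11b+ cells had a median of 0.16 with 50 of 61 above zero.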

How the data were processed

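Gene expression was measured on 18 Affymetrix arrays, 3 for each of 6 groups. The authors deposited log2 expression values per probe set, made by RMA (background correction, quantile normalization, probe summary) per the submitters' processing notes, with the RMA version not given in the sources used here. They were used as deposited and array medians ran from 3.99 to 4.09. Per the labels' protocols, 5 ng of total RNA was amplified for each array, which adds technical spread.

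Of 34760 probe sets, 21640 carried 1 symbol and were used. A probe set was kept above the 40th percentile of all values (3.51) in at least 3 arrays, and the one of highest mean stood for its gene. That level is not a measured background. One model of the 6 group means was fitted in limma 3.58.1 (R 4.3.3, with the data.table package 1.17.8) with empirical Bayes spread, and 13 comparisons were tested two-sided with Benjamini-Hochberg adjustment over 14003 genes: pairs of subsets in each condition, DSS against untreated in each subset, their interactions, and DSS against untreated over the 6 experiment means. The code was tested on simulated data. The median standard error of a difference between 2 groups was 0.166, limited by how many arrays there are.

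The experiment number in the titles pairs the subsets of a condition. Residuals of same-numbered arrays correlated across genes with a median of 0.25 over 9 untreated pairs (8 over 0.1, the lowest -0.03) and 0.18 over 9 DSS pairs, against -0.12 and -0.13 for 18 other pairs each. Residuals were taken from the group means, so the values of the other pairs largely follow from those of same-numbered pairs. They are no separate check of the pairing. The number was fitted as a replicate block among the alternatives, which also varied the filter, normalization, probe set choice, eBayes options, the samples fitted and each replicate.

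The members, gene lists and alternatives were chosen with earlier results of these data known. Named with values are all called members, fixed isoform sets and core subunits, and, when few are called, members of lowest p or widest range. Cox7c and Ndufb4, on probe sets with several symbols, were not used here. Promoters were matched by Entrez gene identifier to RefSeq sequences of GRCm38.p6.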

Additional observations from a re-analysis of the deposited data

How the results depend on the processing

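The number of respiratory chain genes called stayed within 1.5 times the main count, or at 0, under most alternatives. For untreated CD103+CD11b- against CD103-CD11b+ cells it was 1 and became 0 in a fit of those groups alone. It ran from 0 to 1 when single replicates were left out, with Ndufv3 in place of Ndufb11 in 1 of those fits. For untreated CD103+CD11b+ against CD103-CD11b+ cells it was 0 and became 1 (Sdhd) with the replicate block and with the filter at the 60th percentile, 2 (Ndufab1 and Sdhd) with the trend and robust options of eBayes, and 0 to 2 without single replicates. For untreated CD103+CD11b- against CD103+CD11b+ cells it ran from 0 to 3 without single replicates, the 3 being Ndufb3, Sdhd and Uqcrc1 without CD103+CD11b+ replicate 3. For DSS CD103+CD11b- against CD103+CD11b+ cells it became 1 (Cox6b2) with the replicate block and with the stricter filter, and 0 to 2 without single replicates. For DSS CD103+CD11b- against CD103-CD11b+ cells it became 1 (Cox6b2) with the replicate block and in a fit of those groups alone, and 0 to 1 without single replicates. The pairing by experiment changed no other call of a respiratory chain gene, and it cannot be fitted for DSS against untreated cells, which share no experiment number. The remaining comparisons stayed at 0 in every alternative run: 13 for DSS CD103+CD11b+ against CD103-CD11b+ cells, 12 for each DSS difference, 19 for each interaction and 11 for the experiment means. The median over all 90 genes moved by less than 1 SD of the arrays (0.102) in each alternative run. That SD is larger than several of the medians, so this bar is wide and cannot show them to be stable. Quantile normalization applied again stayed within it while the untreated CD103+CD11b+ minus CD103-CD11b+ median fell from 0.11 to 0.04. The DSS difference in CD103+CD11b- cells changed sign there, from 0.03 to -0.0042. Medians of single complexes moved further, that of complex III for the DSS change in CD103+CD11b+ minus CD103-CD11b+ cells from -0.19 to -0.07 with quantile normalization applied again. In untreated CD103+CD11b+ minus CD103-CD11b+ cells, the medians of complexes IV and V changed sign with it, each from 0.08 to -0.01. Of 31 calls named in the text, 8 were kept in all 13 alternatives and 23 were lost in at least 1. Signal over background limits Cox4i2, Cox6a2, Cox8b and Ndufa4l2, which lay near the filter level.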
